A study of Mus musculus with 117 samples.

Results

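The genes described here are those of MHC class I antigen presentation: the light chain B2m, the heavy chains H2-D1 and H2-K1, the peptide transporter Tap1 and Tap2, the loading factor Tapbp, the immunoproteasome subunits Psmb8 and Psmb9, and the nonclassical molecules H2-T23 and H2-M3. They were taken as every probe set annotated with 1 of these 10 symbols and no other, which gave 21 of the 36701 probe sets of the series and 9 of the 10 genes. H2-D1 and H2-K1 had 3 probe sets each, Tap1 had 3, Tapbp 4, Tap2, Psmb8 and H2-M3 2 each, and B2m and Psmb9 1 each. The 2 probe sets that name H2-T23 name other genes too and are not analysed here. Of the 21, 17 were on array design A, 1 on B and 3 on C, and the probe sets of a gene are numbered below with the main one as 1 (93088_at for B2m, 97540_f_at for H2-D1, 93120_f_at for H2-K1, 103035_at for Tap1, 100154_at for Tapbp and 102791_at for Psmb8).

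The samples were whole glands of female B6.CB17-Prkdc scid/SzJ (B6-scid) and NOD.CB17-Prkdc scid/J (NOD-scid) mice. Each strain carries the scid mutation of Prkdc and lacks mature T and B cells, so neither models a gland with these cells. Pancreas was taken at 6 weeks, submandibular gland at 9 or 15 weeks and lacrimal gland at 15 weeks, from 5 mice for each strain, gland and age except NOD-scid lacrimal gland, which had 4. The 39 gland samples were each read on 3 Affymetrix MG-U74v2 array designs, 117 arrays in all. No mouse received a treatment, and the labels say that submandibular glands were freed of sublingual gland, connective and fat tissue.

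Class I molecules show peptides from inside a cell to CD8 T cells and to natural killer cells. Proteasomes cut the peptides, with Psmb8 and Psmb9 as catalytic subunits of the interferon-inducible form, the transporter Tap1-Tap2 carries them into the endoplasmic reticulum, Tapbp (tapasin) holds the empty molecule beside the transporter, and a heavy chain leaves for the surface only with peptide and B2m. In NOD mice, CD8 T cells that recognise peptides on class I molecules take part in the attack on pancreatic islets. H2-D1, H2-K1, Tap1, Tap2, Tapbp, Psmb8, Psmb9, H2-T23 and H2-M3 lie in or beside the H2 complex on chromosome 17, where the strains differ: NOD carries the haplotype H2g7 (Kd with Db) and B6 the haplotype H2b (Kb with Db). B2m lies on chromosome 2, outside that complex.

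Promoter sequences are shown for B2m, both heavy chains and Tap1. B2m and the heavy chains were called in strain comparisons below, while Tap1 was called only between glands in NOD-scid. The patterns searched are like elements through which class I genes are commonly induced. The sequences are the 250 bases before the start of transcription, 5′ to 3′ on the gene's strand, from RefSeq, assembly GRCm38.p6, which is the C57BL/6J sequence; no NOD sequence was used here. Capitals mark matches to GAAA-NN-GAAA (like an interferon-stimulated response element), GGG-NN-TTCCC (like a kappaB site), TTC-NNN-GAA (like an interferon gamma activated site) or TGACG (like the core of a cyclic AMP response element), searched on both strands, where N is any base.
B2m at chr2:122147437-122147686, plus strand: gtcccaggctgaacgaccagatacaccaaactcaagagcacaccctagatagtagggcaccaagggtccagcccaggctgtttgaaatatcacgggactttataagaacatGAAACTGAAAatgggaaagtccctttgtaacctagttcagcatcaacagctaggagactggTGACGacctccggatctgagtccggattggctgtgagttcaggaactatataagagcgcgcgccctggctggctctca
H2-D1 at chr17:35262844-35263093, plus strand: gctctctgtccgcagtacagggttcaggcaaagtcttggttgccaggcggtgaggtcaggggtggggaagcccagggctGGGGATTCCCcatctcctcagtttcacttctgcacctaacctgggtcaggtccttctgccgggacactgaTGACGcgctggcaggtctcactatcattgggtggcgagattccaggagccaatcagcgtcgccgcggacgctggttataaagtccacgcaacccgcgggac
H2-K1 at chr17:34000348-34000597, minus strand, the first of 2 listed starts: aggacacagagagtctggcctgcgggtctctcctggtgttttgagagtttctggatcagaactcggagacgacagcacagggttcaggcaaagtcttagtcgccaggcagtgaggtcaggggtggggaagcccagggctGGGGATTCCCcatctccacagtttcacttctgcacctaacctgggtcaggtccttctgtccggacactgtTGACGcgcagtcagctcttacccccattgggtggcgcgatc
Tap1 at chr17:34187306-34187555, plus strand: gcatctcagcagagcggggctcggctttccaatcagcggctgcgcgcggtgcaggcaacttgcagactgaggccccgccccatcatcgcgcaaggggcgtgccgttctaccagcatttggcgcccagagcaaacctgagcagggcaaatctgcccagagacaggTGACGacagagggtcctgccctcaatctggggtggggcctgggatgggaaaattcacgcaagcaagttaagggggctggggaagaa
The B2m promoter held the interferon-element match GAAACTGAAA at -139 to -130 and the core TGACG at -78 to -74. H2-D1 and H2-K1 held the same kappaB match, GGGGATTCCC, at -171 to -162 and at -111 to -102, each followed by TGACG, at -101 to -97 and at -41 to -37. Tap1 held TGACG alone, at -86 to -82, in a window that overlaps the Psmb9 window on the opposite strand (chr17:34187331-34187580). Among the 9 members with a listed promoter, 2 matched the interferon-element pattern (B2m and H2-T23), 2 the kappaB pattern, 2 the activated-site pattern (Psmb8 and H2-M3) and 6 the TGACG core. Of 32851 mouse promoters of the same length, 2.98%, 1.53%, 7.02% and 17.8% matched in that order, and no matches overlapped within a member's promoter. The TGACG matches of Tap1 and Psmb9 are the same bases read on opposite strands, so the 6 members do not hold 6 separate sites. These are matches of letters, not measured sites. The patterns searched were fixed, so a promoter without a match can still hold such an element in other letters.

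Values are signal intensities scaled to a 2% trimmed mean of 500 per array, differences are log2 differences of signal + 32 with the standard error (SE), and a probe set was called at an adjusted p under 0.05 (limma, Benjamini-Hochberg over all probe sets tested). On that scale the change of a dim gene is understated. On design A, the samples of a group correlated with each other at a mean r of 0.908 to 0.949, and 65.2% to 70.7% of probe sets reached a signal of 100. Several samples stood apart in marker genes. In lacrimal gland, the summed signal of 9 measured saliva markers (of 12 listed) was 47742, 724138, 806148, 56509 and 53092 in B6-scid replicates 1 to 5 and 5546, 5972, 4610 and 85240 in NOD-scid replicates 1 to 4, so B6-scid replicates 2 and 3 and NOD-scid replicate 4 were the highest of their groups. The same sum averaged 270087 in B6-scid and 281482 in NOD-scid submandibular gland at 15 weeks. In pancreas it averaged 125435 and 104859, so it was not particular to saliva glands. Which tissue gave the high sums in lacrimal samples was not tested. In submandibular gland at 9 weeks, NOD-scid replicate 1 had a summed pancreas marker signal of 141368, and the markers Obp1a and Cela1 were lower at 15 than at 9 weeks in both strains. The T cell markers Cd3g and Cd8a had mean signals of at most 91.7 and 53.3 in any group, but not all T cell markers were that dim. Of 7 listed, 6 were measured, and their summed signal averaged 1786 in B6-scid and 2032 in NOD-scid pancreas. In the other groups that sum averaged 373 to 481. These are whole glands, so fewer cells of a type and less RNA per cell cannot be told apart, and each replicate is a separate mouse, per the labels.

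By probe set 1, all 9 measured genes had their highest mean in a submandibular group, and the light and heavy chains spanned the widest range over glands. Some other probe sets had another order: Tap1 probe set 2 was highest in NOD-scid pancreas (742 ± 190, against means of 188 to 269 in submandibular gland), Tap1 probe set 3 in B6-scid pancreas (462 ± 110), Tap2 probe set 2 in NOD-scid pancreas (1043 ± 322) and Tapbp probe set 2 in NOD-scid lacrimal gland (1273 ± 109). B2m averaged 14106 ± 2934 (SD, n = 5) in NOD-scid submandibular gland at 15 weeks, 13753 ± 3555 in B6-scid and 13179 ± 3498 in NOD-scid gland at 9 weeks, 9449 ± 2808 in B6-scid gland at 15 weeks and 6602 ± 3302 in B6-scid lacrimal gland. It was far lower in B6-scid pancreas (2160 ± 245), NOD-scid pancreas (1870 ± 473) and NOD-scid lacrimal gland (1303 ± 241, n = 4). Along this order the ranges of neighbouring groups overlapped at each step except between B6-scid lacrimal gland and B6-scid pancreas. The B6-scid lacrimal mean held replicates 2 and 3, the highest in saliva markers, at 12190 and 6982, while the other 3 mice read 4208 to 5080. Without those 2, B2m was called lower in B6-scid lacrimal than in submandibular gland of the same age (-0.97, adjusted p = 0.0360).

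H2-D1 ran in nearly the same order, from 20121 ± 2352 in NOD-scid submandibular gland at 9 weeks, through 8738 ± 4171 in B6-scid and 2111 ± 380 in NOD-scid lacrimal gland, to 1247 ± 456 in NOD-scid pancreas (probe set 1). H2-K1 ran from 23347 ± 2578 to 2157 ± 505 in the same 2 end groups, with B6-scid lacrimal gland at 14253 ± 6971 and NOD-scid lacrimal gland at 5787 ± 434. Neighbouring groups of H2-K1 did not overlap at 2 steps, from B6-scid to NOD-scid lacrimal gland and from B6-scid to NOD-scid pancreas. The transporter and its partners varied less. Tap1 averaged 706 ± 114 in NOD-scid submandibular gland at 9 weeks and 132 ± 77.4 in NOD-scid pancreas, with overlap between all neighbours in the order. Tapbp lay between 2227 ± 362 in B6-scid submandibular gland at 15 weeks and 574 ± 56.9 in NOD-scid pancreas, and Psmb8 between 923 ± 199 in NOD-scid submandibular gland at 9 weeks and 113 ± 53.5 in NOD-scid pancreas.

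**Figure D1:**
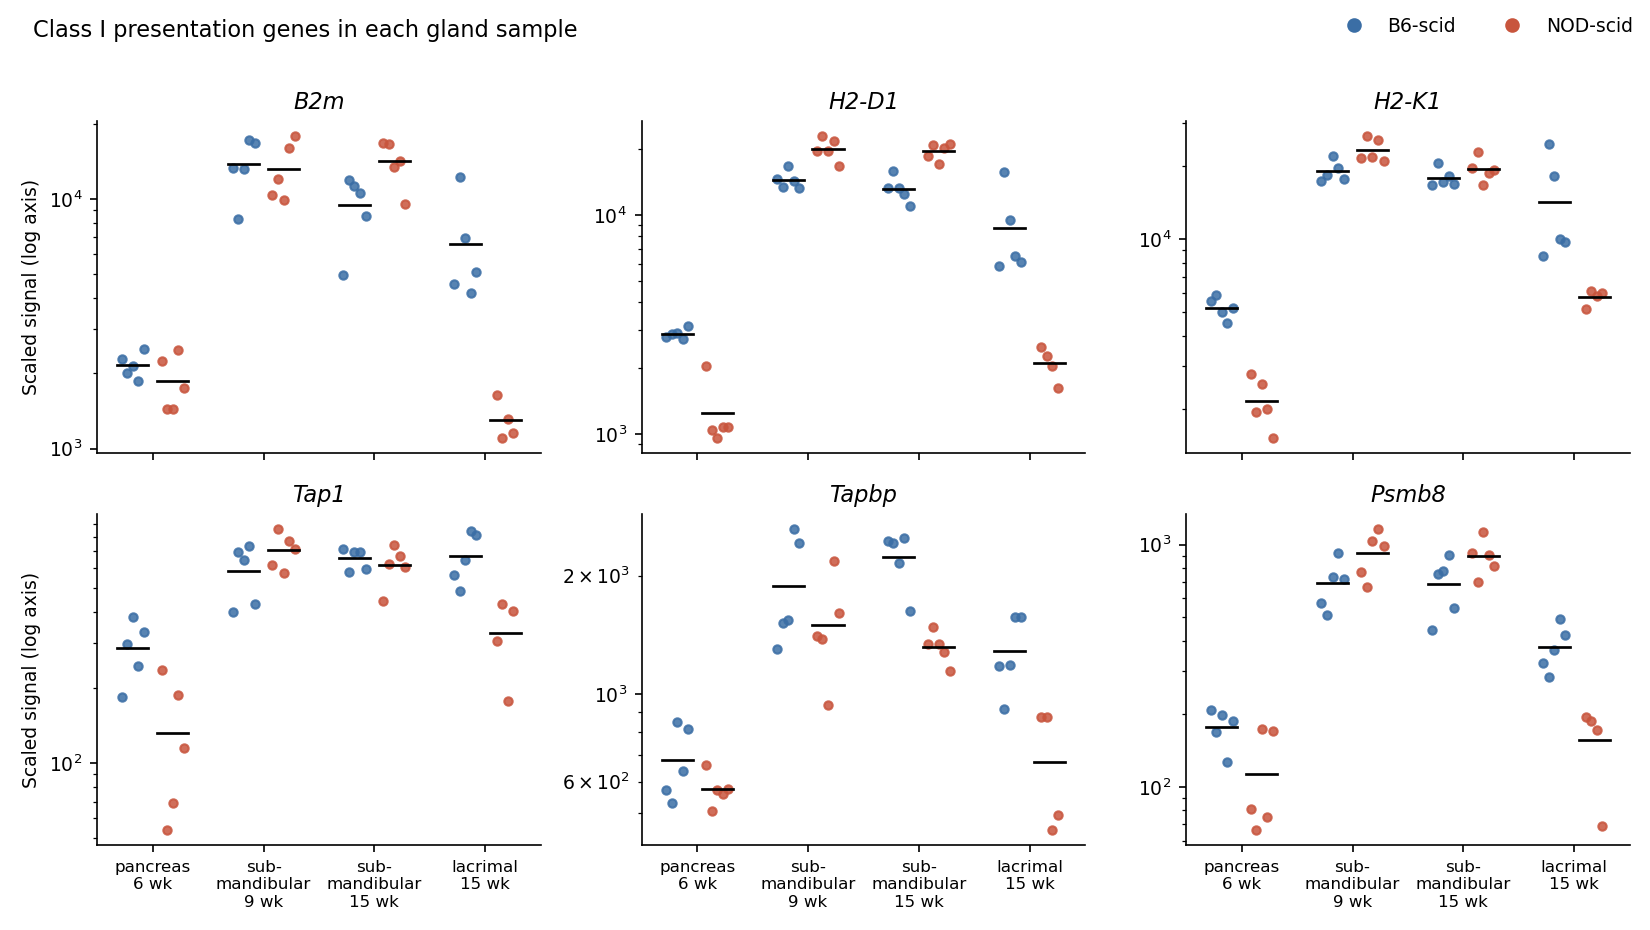
Scaled signal (log axis) of probe set 1 of B2m, H2-D1, H2-K1, Tap1, Tapbp and Psmb8 in each of the 39 gland samples, by gland and age (wk, weeks); points are mice, coloured by strain, and bars are group means. The 3 chains are highest in submandibular gland, and in lacrimal gland the 4 NOD-scid points lie below the 5 B6-scid points for each chain.

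The lacrimal gland showed the largest strain difference of these genes. B2m and H2-D1 were called lower in NOD-scid, and 13 of the 19 probe sets tested had a difference below 0, with a median of -0.93 against 0.016 over all 27686 probe sets tested. The count of 2 called (both lower) stands beside 0.957% called over all probe sets. B2m signals were 4552, 12190, 6982, 4208 and 5080 in B6-scid and 1639, 1106, 1316 and 1151 in NOD-scid. Every NOD-scid value lay under the lowest B6-scid value, and B6-scid replicate 2 was the highest of all. The log2 difference was -2.21 (SE 0.32, adjusted p = 0.0148). H2-D1 signals were 5840, 15722, 9501, 6505 and 6124 in B6-scid and 2512, 2264, 2051 and 1616 in NOD-scid, again without overlap and with B6-scid replicates 2 and 3 highest. Its difference was -1.94 (SE 0.32, adjusted p = 0.0228).

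The other probe sets of the heavy chains had differences of the same sign that did not pass the test, apart from the dim probe set 3 of H2-K1. H2-D1 probe sets 2 and 3 differed by -1.22 (adjusted p = 0.0824) and -1.67 (adjusted p = 0.131). H2-K1 probe set 1 read 8549, 24687, 18184, 10075 and 9771 in B6-scid and 5155, 6115, 5864 and 6014 in NOD-scid, without overlap, at -1.17 (SE 0.33, adjusted p = 0.148). Probe set 2 of H2-K1 gave -1.20 (adjusted p = 0.127). Among the genes that supply and load peptide, Tap1 probe set 1 signals were 563, 485, 645, 841 and 815 in B6-scid and 307, 431, 176 and 405 in NOD-scid, at -0.99 (adjusted p = 0.163). The groups did not overlap for this probe set, nor for Psmb8 probe set 1, whose signals were 323, 284, 368, 491 and 425 against 194, 187, 172 and 68.7, at -1.18 (adjusted p = 0.102). Probe set 1 of Tapbp gave -0.93 (adjusted p = 0.175) and that of Tap2 -1.07 (adjusted p = 0.298), while that of H2-M3 gave -0.07 (adjusted p = 0.951). Most other probe sets of these genes lay nearer 0 or above it: Tap1 probe sets 2 and 3 were at 0.04 and 0.22, Tap2 probe set 2 at 0.19, Tapbp probe sets 2 and 3 at 0.04 and -0.21 and H2-M3 probe set 2 at 0.07, with Psmb8 probe set 2 at -0.65 (adjusted p of 0.467 to 0.975). Psmb9 and Tapbp probe set 4 were too dim in lacrimal gland to be tested.

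The B6-scid lacrimal samples with the highest saliva marker signal were also the highest for B2m, H2-D1 and H2-K1, whereas NOD-scid replicate 4, at a marker sum of 85240, had a B2m signal of 1151 and an H2-D1 signal of 1616. Without B6-scid replicates 2 and 3, B2m stayed lower in NOD-scid by a log2 difference of -1.81 (adjusted p = 0.0248) and H2-D1 by -1.55 (adjusted p = 0.0398), while H2-K1 gave -0.71 (adjusted p = 0.209). Without these 2 and NOD-scid replicate 4, B2m gave -1.76 (adjusted p = 0.0745) and H2-D1 -1.43 (adjusted p = 0.0869), so both calls ended with 3 mice per strain. These fits did not even out the saliva markers between the strains. The B6-scid mice kept had marker sums of 47742 or more, above each of NOD-scid replicates 1 to 3. With all mice, all 6 saliva markers tested lay below 0 in lacrimal gland (median -3.38, none called). Their part in the class I difference was not tested. Over all alternatives the adjusted p ran from 2.83e-06 to 0.0745 for B2m and from 4.209e-07 to 0.0869 for H2-D1, leaving aside the fit with replicate number. The H2-D1 call also ended when B6-scid replicate 3 or any 1 NOD-scid mouse was left out (adjusted p of 0.0529 to 0.0654), and the B2m call held in all 9 such fits. Of 7 leukocyte markers 5 were tested in lacrimal gland, of which 4 lay below 0 and 1 above it, and 1 was called: Tyrobp, an adaptor of myeloid and natural killer cells, with 407 ± 47.9 against 141 ± 33.7 and a difference of -1.36 (adjusted p = 0.0149). The summed signal of the 7 was 4047 to 4857 in B6-scid and 3192 to 3732 in NOD-scid, the defining marker Ptprc averaged 38.8 and 20.6. In submandibular gland at 15 weeks, where B2m and the heavy chain probe sets lay above 0 (but for H2-K1 probe set 1 at -0.02 after quantile normalization), all 7 leukocyte markers lay below 0 (median -0.35, none called), and their sum was 4446 to 5553 in B6-scid and 3183 to 4249 in NOD-scid, also without overlap. The part of leukocytes in the class I difference was not tested.

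**Figure D2:**
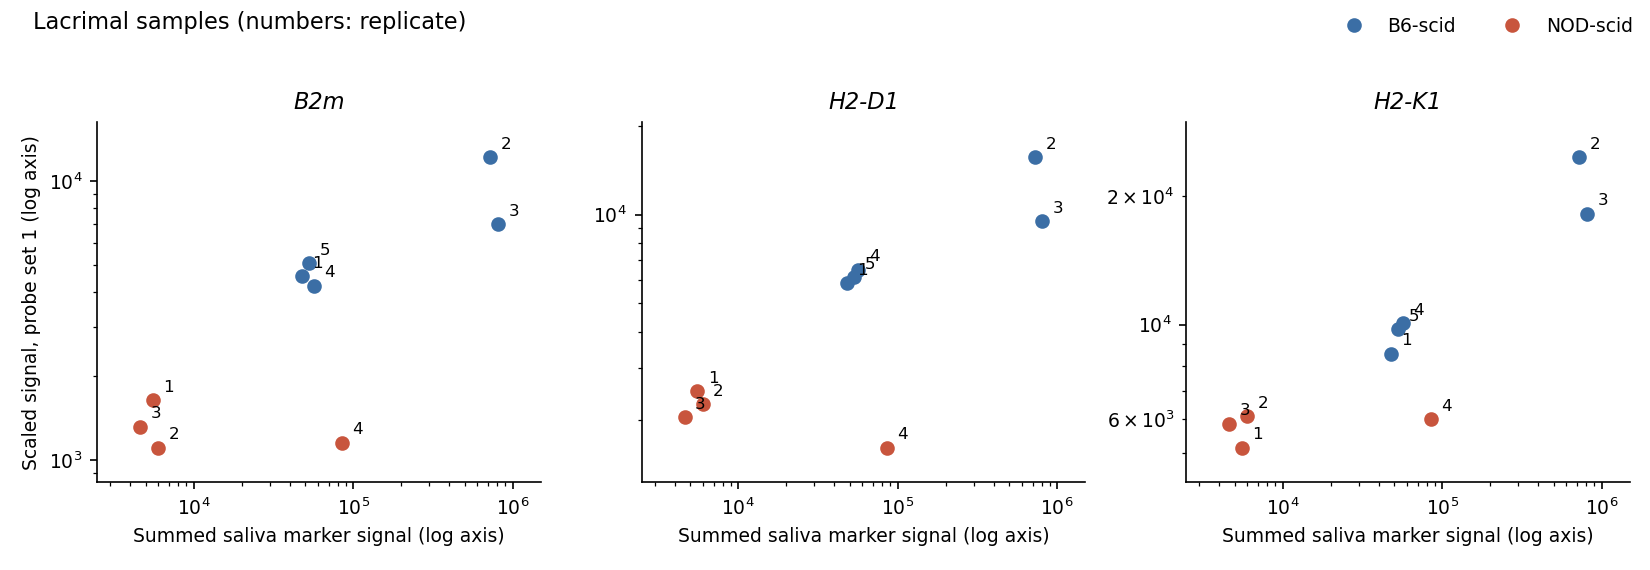
Scaled signal of probe set 1 of B2m, H2-D1 and H2-K1 (vertical, log axis) against the summed signal of 9 saliva markers (horizontal, log axis) in the 9 lacrimal samples, with replicate numbers beside the points. B6-scid replicates 2 and 3 are highest on both axes, and NOD-scid replicate 4, at a marker sum of 85240, lies with the other NOD-scid mice on the vertical axis.

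The strain difference itself was compared between lacrimal and submandibular gland of 15 weeks. B2m and H2-D1 probe set 1 were called lower in NOD-scid lacrimal gland, no H2-K1 probe set was called there, and none of these was called in submandibular gland at 15 weeks. In the comparison of the glands, 5 of 21 probe sets were called with a lower difference in lacrimal gland, beside 0.286% of all 31441 probe sets. For B2m the strain difference in lacrimal gland minus that in submandibular gland was -2.82 (SE 0.43, adjusted p = 0.00335). Submandibular B2m signals at 15 weeks were 4968, 11918, 11290, 10521 and 8550 in B6-scid and 16717, 16608, 13467, 14207 and 9532 in NOD-scid, which overlapped and were mostly higher in NOD-scid. For H2-D1 the comparison gave -2.52 (adjusted p = 0.00148), -1.50 (0.0494) and -2.27 (0.0492) in probe sets 1 to 3. H2-K1 gave -1.97 in probe set 2 (adjusted p = 0.0120) and -1.29 in probe set 1 (adjusted p = 0.169), so its probe sets did not fall on the same side of the threshold.

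Psmb8 had -1.57 (adjusted p = 0.0811), Tap2 -1.47 (0.263) and Tap1 -0.89 (0.352), none of which passed, and Tapbp, Psmb9 and H2-M3 lay between -0.35 and 0.20. The calls of B2m, H2-D1 probe set 1 and H2-K1 probe set 2 held in each of the 19 fits without 1 sample. They also held without the lacrimal samples high in saliva markers, at -2.37 (adjusted p = 0.0158), -2.0 (0.000924) and -1.45 (0.0133) without all 3. The B6-scid lacrimal mice kept there still had higher saliva marker sums than the NOD-scid mice kept. H2-D1 probe set 2 lost its call in 17 of these 19 fits (adjusted p of 0.0534 to 0.0992) and probe set 3 in 15 (0.0545 to 0.0999). Whether the same mice gave both glands is not stated in the labels, and a fit with the mouse as a random block left the count at 5.

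Within each strain the lacrimal gland was then set against the submandibular gland of the same age. In NOD-scid, 12 of 21 probe sets were called lower in lacrimal gland and none higher, from each of the 9 genes but Psmb9, beside 15.0% of all probe sets called. B2m differed by -3.39 (SE 0.31, adjusted p = 3.99e-07), H2-D1 by -3.21 (SE 0.25, adjusted p = 6.22e-08) and H2-K1 by -1.74 (SE 0.25, adjusted p = 0.000115). Psmb8, at 920, 699, 1128, 904 and 818 in submandibular and 194, 187, 172 and 68.7 in lacrimal gland, differed by -2.36 (SE 0.26, adjusted p = 4.96e-06). Tap1 differed by -0.89 (adjusted p = 0.016), Tap2 by -1.20 (0.0240), Tapbp by -0.99 (0.00645) and H2-M3 by -1.04 (0.0242). For these genes other than H2-M3 the glands did not overlap. Leaving out 1 mouse ended some calls of dimmer genes: Tap2 was lost without lacrimal replicate 2 (adjusted p = 0.0779), Tap1 without lacrimal replicate 3 (0.0660) and H2-M3 without any of 5 mice (0.0526 to 0.0780).

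In B6-scid, 3 of 21 were called lower, beside 10.9% of all probe sets, and these were of Tapbp and Psmb8, with the chains not called. Tapbp probe set 1 read 2454, 2419, 2149, 2488 and 1625 in submandibular and 1180, 918, 1183, 1570 and 1574 in lacrimal gland. The glands did not overlap, and the difference was -0.79 (SE 0.22, adjusted p = 0.0238), with -0.87 (adjusted p = 0.00396) in probe set 3. Psmb8 gave -0.79 (adjusted p = 0.0471), while B2m gave -0.57 (0.239), H2-D1 -0.69 (0.0687), H2-K1 -0.46 (0.255) and Tap1 0.00 (0.994). Tapbp probe set 3 kept its call in every fit without 1 sample, Tapbp probe set 1 lost it in 4 (adjusted p of 0.0516 to 0.0590) and Psmb8 in 7 (0.0606 to 0.120). Without lacrimal replicates 2 and 3, the highest in saliva markers, the chains were called in B6-scid too. B2m then gave -0.97 (adjusted p = 0.0360), H2-D1 -1.09 in probe set 1 (0.00116) and -1.0 in probe set 3 (0.0280), and H2-K1 -0.92 (0.00183), while Tapbp probe set 1 (0.132) and Psmb8 (0.175) lost their calls. Quantile normalization also called H2-D1 probe set 1 (-1.0, adjusted p = 0.00349) and H2-K1 probe set 1 (-0.92, adjusted p = 0.0102).

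**Figure D3:**
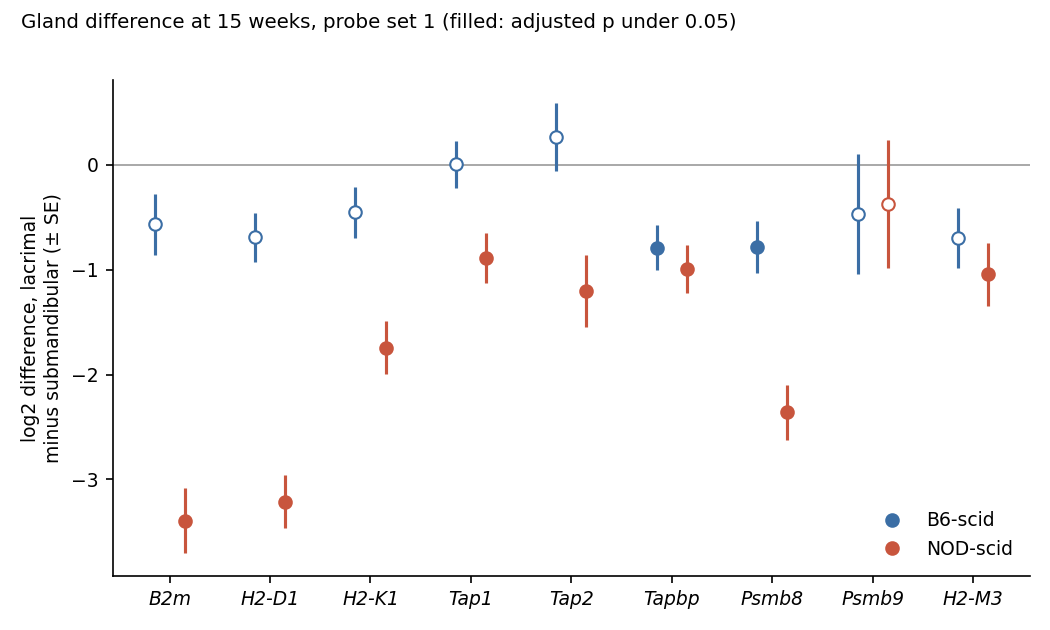
Log2 difference (± SE) between lacrimal and submandibular gland at 15 weeks for probe set 1 of the 9 measured genes, in B6-scid (5 and 5 mice) and NOD-scid (4 and 5 mice); filled points have an adjusted p under 0.05. B2m and H2-D1 lie at -3.39 and -3.21 in NOD-scid and at -0.57 and -0.69 in B6-scid.

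In pancreas, both heavy chains were called lower in NOD-scid and B2m was not. The 2 calls among 18 probe sets tested, both lower, stand beside 0.442% called over all probe sets, and 12 of the 18 lay below 0 (median -0.22, against 0.018 over all). H2-K1 signals were 5565, 5878, 5001, 4519 and 5211 in B6-scid and 2796, 1938, 2527, 2000 and 1523 in NOD-scid. The strains did not overlap, and the difference was -1.29 (SE 0.20, adjusted p = 0.0172). H2-D1 signals were 2780, 2875, 2888, 2720 and 3122 in B6-scid and 2057, 1050, 964, 1083 and 1081 in NOD-scid, at -1.24 (SE 0.22, adjusted p = 0.0373). The strains again did not overlap, and NOD-scid replicate 1 was well above the other 4 of its group. B2m signals were 2278, 2012, 2139, 1868 and 2505 against 2250, 1437, 1442, 2475 and 1746, which overlapped, at -0.23 (SE 0.20, adjusted p = 0.775).

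Of the remaining pancreas values, H2-D1 probe set 3 gave -0.93 (adjusted p = 0.114), H2-K1 probe set 2 -0.74 (0.264), Tap1 probe set 1 -1.06 (0.279) and Psmb8 probe set 1 -0.59 (0.506). Some other probe sets of the transporter and of Tapbp lay on the other side of 0. Tap1 probe set 2 averaged 433 in B6-scid and 742 in NOD-scid, at 0.78 (adjusted p = 0.414), and Tap2 probe set 2 was at 0.64 (0.517). Tapbp probe set 2 averaged 706 and 1091, without overlap, at 0.62 (adjusted p = 0.279). H2-D1 probe set 2, in contrast, was nearly level, with 2755, 2304, 2160, 2048 and 2726 in B6-scid and 2543, 2246, 2168, 1923 and 1820 in NOD-scid, at -0.16 (adjusted p = 0.824). Tapbp probe sets 1 and 3 lay at -0.22 (0.770) and -0.06 (0.971) and H2-M3 probe set 1 at 0.19 (0.839), and Tap2 probe set 1, Psmb9 and Tapbp probe set 4 were too dim to be tested. The H2-K1 call held in all 10 fits without 1 mouse, while the H2-D1 call ended in 9 of them, each but the one without NOD-scid replicate 1 (adjusted p of 0.0749 to 0.0978). The 3′ to 5′ signal ratio of Actb, a measure of RNA integrity, was 2.54 ± 0.467 in B6-scid and 2.04 ± 0.0421 in NOD-scid pancreas, and with it as a covariate neither chain was called, at differences of -1.40 (SE 0.26, adjusted p = 0.109) for H2-K1 and -1.24 (SE 0.30, adjusted p = 0.213) for H2-D1.

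In submandibular gland the called heavy chain probe sets were higher, not lower, in NOD-scid. At 9 weeks 2 of 21 probe sets were called, both higher, beside 0.94% of all probe sets, and 15 of 21 lay above 0 (median 0.29, against 0.028 over all). H2-K1 probe set 2 read 1886, 1787, 3086, 2254 and 1367 in B6-scid and 3801, 4419, 4763, 4029 and 3712 in NOD-scid. These did not overlap, and differed by 1.03 (SE 0.20, adjusted p = 0.0116). H2-D1 probe set 3 read 1335, 1362, 1303, 2396 and 1968 against 2913, 3174, 3047, 3378 and 2629, also without overlap, at 0.88 (SE 0.21, adjusted p = 0.0432). The brighter probe sets of the same genes gave smaller values, 0.47 (adjusted p = 0.254) for H2-D1 probe set 1 and 0.29 (0.539) for H2-K1 probe set 1, and B2m gave -0.06 (0.965). Tapbp gave -0.31 (0.687) and Psmb8 0.40 (0.560).

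At this age Actb ratios were 4.34 and 2.76 in B6-scid replicates 4 and 5 and 2.87 in NOD-scid replicate 4, and 1.54 to 2.11 in the other mice. Without the 9-week samples numbered 4 and 5, H2-K1 probe set 2 gave 0.97 (adjusted p = 0.0775) and H2-D1 probe set 3 gave 1.17 (adjusted p = 0.0240). The H2-D1 call ended in 8 of 10 fits without 1 mouse (adjusted p of 0.0547 to 0.107) and that of H2-K1 in none, and neither stood when the 9-week samples were fitted alone (adjusted p = 0.276 and 0.194).

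At 15 weeks none of the 21 probe sets was called by limma, beside 0.554% over all probe sets, and 5 of them had an unadjusted p under 0.05, as had 2103 of all. H2-K1 probe set 2 was the nearest, with 1727, 2392, 2112, 1943 and 1816 in B6-scid and 3161, 3598, 3220, 3615 and 3416 in NOD-scid. The strains did not overlap, at 0.77 (adjusted p = 0.123). H2-D1 probe set 1 read 13363, 15933, 13253, 12462 and 10968 against 18693, 20915, 17102, 20248 and 21119, without overlap, at 0.58 (adjusted p = 0.221), and B2m gave 0.61 (0.707). Tapbp went the other way, with 1338, 1484, 1342, 1281 and 1146 in NOD-scid, below each of the B6-scid values given above, at -0.73 (adjusted p = 0.354).

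Age left these genes without a call. Between 9 and 15 weeks none of 21 probe sets was called in B6-scid, where 1.06% of all were, and none in NOD-scid, where 0.797% were, with 2 in each strain at an unadjusted p under 0.05. The smallest p in B6-scid was that of Tapbp probe set 3, at 0.74 for 15 minus 9 weeks (adjusted p = 0.120), and in NOD-scid that of H2-M3 probe set 1, at 0.97 (adjusted p = 0.248). The strain difference was not called as changed with age for any of the 21, beside 0.0% of all probe sets, and 1 of them had an unadjusted p under 0.05, as had 1580 of all.

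**Figure D4:**
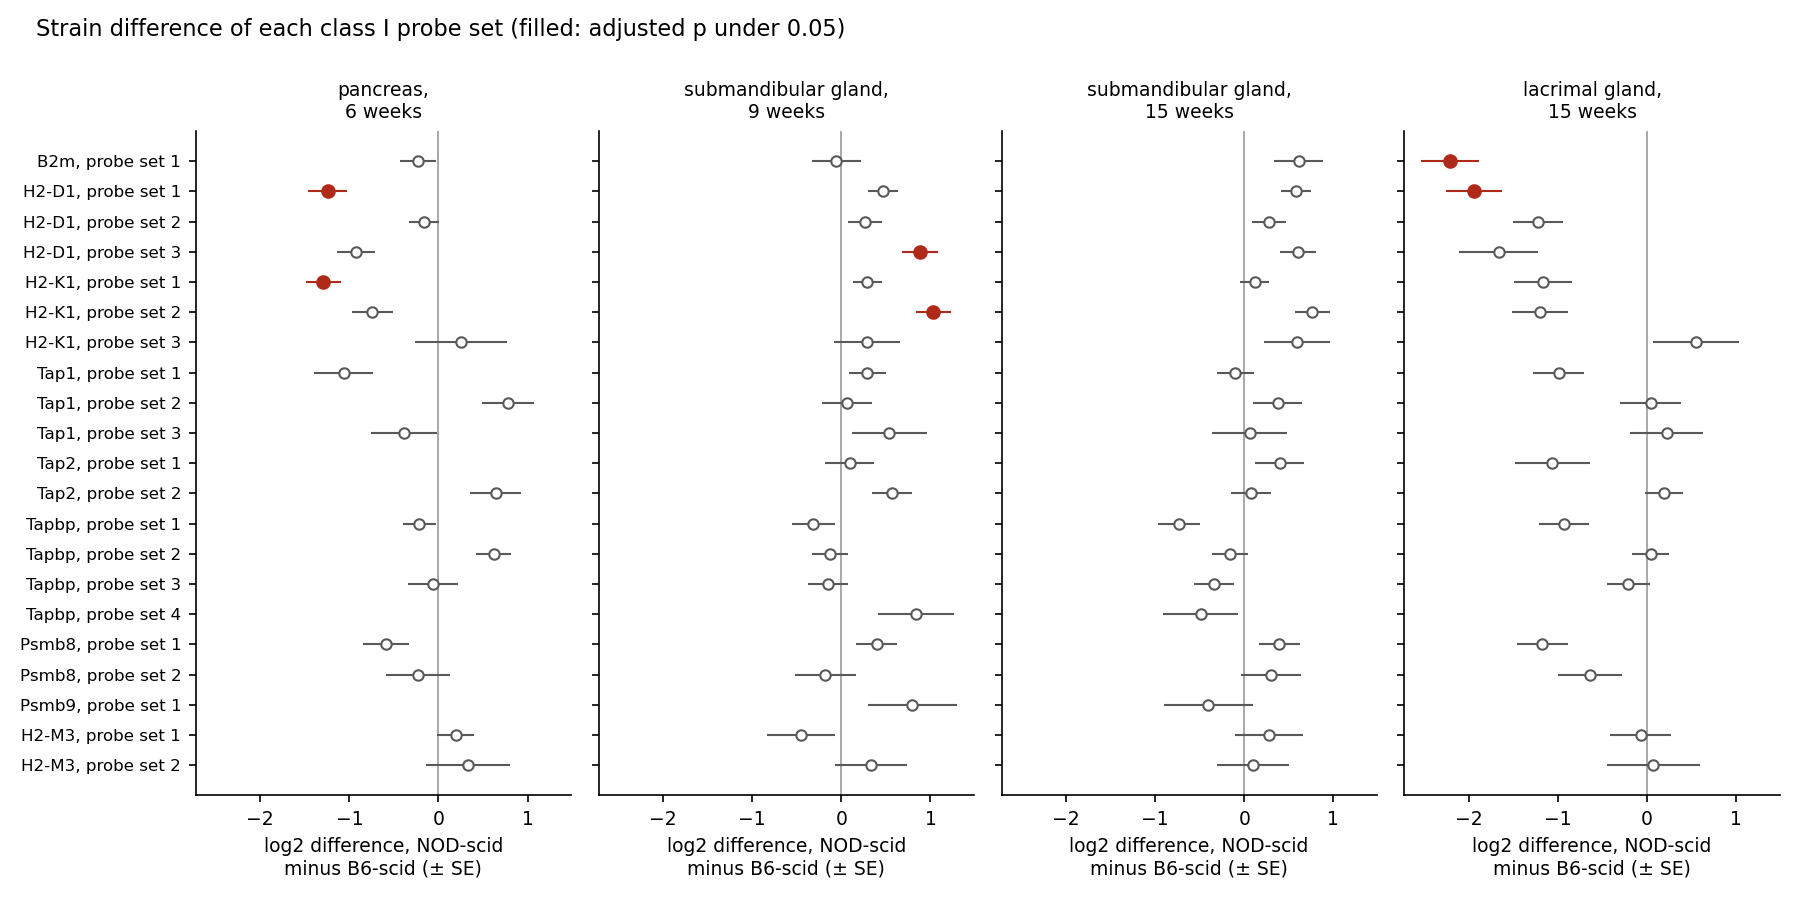
Log2 difference between NOD-scid and B6-scid (± SE, horizontal) of each class I probe set in the 4 strain comparisons; filled points have an adjusted p under 0.05, and probe sets too dim for the test are left out. The heavy chains lie below 0 in pancreas and lacrimal gland and above 0 in submandibular gland, apart from the dim probe set 3 of H2-K1, which lies above 0 in all 4; quantile normalization puts H2-K1 probe set 1 at -0.02 in submandibular gland at 15 weeks.

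Because the strains differ in the H2 complex, probe sets of 1 gene were set against each other within each sample. By the haplotypes named above, the strains differ in K (Kd against Kb) and share Db, so the H2-D1 ratios do not compare 2 D alleles. In such a ratio the level of a transcript cancels only where both probe sets read it in proportion. Within B6-scid alone, the H2-K1 log2 ratio of probe set 1 to probe set 2 was 2.09 in pancreas. It was 2.52 in lacrimal gland and 3.15 in submandibular gland at 15 weeks. The ratio thus moved with gland within a strain, so a strain shift in it is not by itself a measure of probe binding. Of the probe sets, 97540_f_at, 101886_f_at and 97541_f_at (H2-D1) and 93120_f_at and 97125_f_at (H2-K1) carry the maker's suffix for probes shared within a gene family, so they can also read other class I transcripts. For H2-D1 in pancreas, the log2 ratio of probe set 1 to probe set 2 was 0.27 ± 0.17 (SD, n = 5) in B6-scid and -0.81 ± 0.33 (n = 5) in NOD-scid, a difference of -1.08. The same ratio differed by -0.72 in lacrimal gland, by 0.21 in submandibular gland at 9 weeks and by 0.30 at 15 weeks. The strain shift of this ratio was below 0 in the glands where probe set 1 was lower in NOD-scid and above 0 in the gland where it was higher. Probe set 1 is the upper term of the ratio, so this match in sign follows whenever probe set 2 differs less. It is not a separate result.

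For H2-K1 the log2 ratio of probe set 1 to probe set 2 was 3.22 ± 0.31 in B6-scid and 2.48 ± 0.18 in NOD-scid submandibular gland at 9 weeks, and 3.15 ± 0.10 and 2.50 ± 0.14 at 15 weeks, with no overlap at either age. In lacrimal gland it was 2.52 ± 0.21 and 2.55 ± 0.35, which overlapped, and in pancreas 2.09 ± 0.30 and 1.53 ± 0.47. Over 42 such pairs in the 4 strain comparisons, none had an adjusted p under 0.05 in a two-sided exact permutation test, and the smallest p that 5 against 5 mice allow, 0.007937 (adjusted p = 0.0833), was reached by H2-D1 in pancreas, H2-K1 in submandibular gland at both ages and Tap1 in pancreas. In lacrimal gland the smallest p that the test allows is 0.01587. Pairs at the smallest possible p thus did not pass, so the lack of calls does not show that the ratios were equal. What probe binding adds to the strain differences of the H2-linked genes was not tested beyond these ratios, which also moved with gland within B6-scid. B2m, which lies outside the H2 complex, had the largest strain difference of any member in lacrimal gland and was not called in the other 3 strain comparisons. It had 1 probe set, so no such ratio could be formed for it, and probe binding was not tested for B2m.

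**Figure D5:**
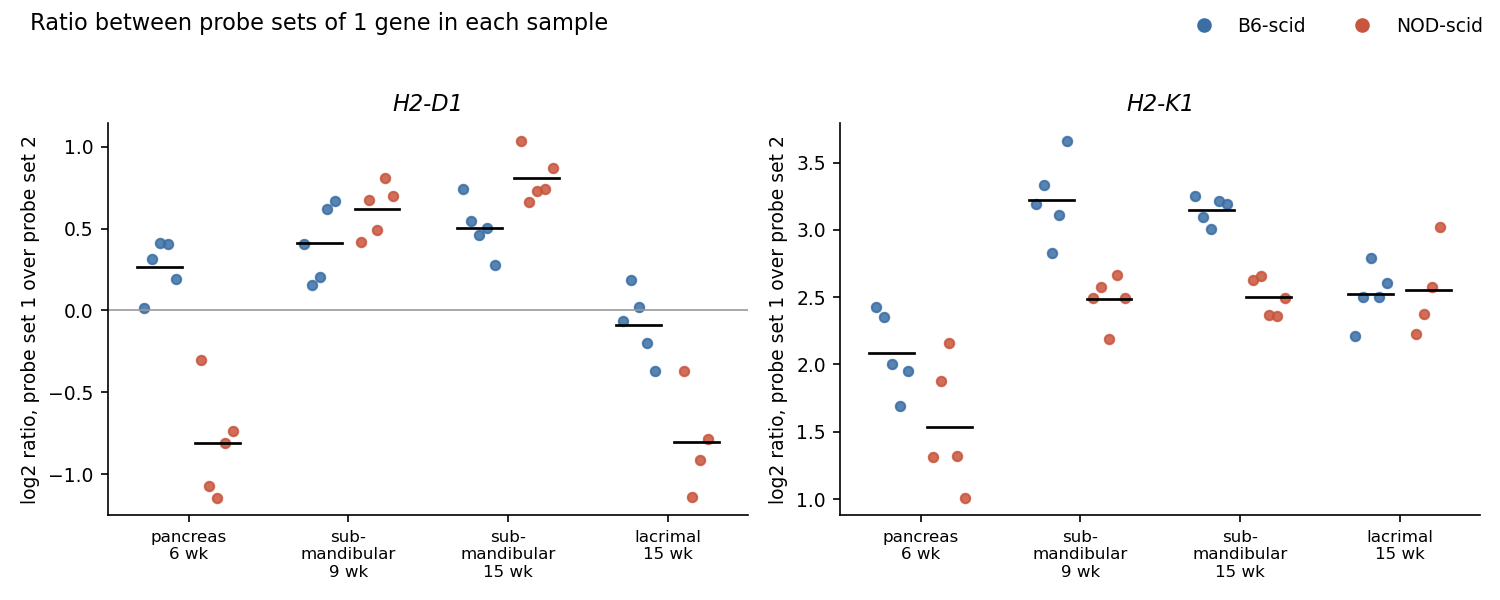
Log2 ratio of probe set 1 to probe set 2 of H2-D1 (left) and H2-K1 (right) in each gland sample, by gland and age (wk, weeks); points are mice and bars are group means. For H2-D1 the strains separate in pancreas, at means of 0.27 and -0.81, and for H2-K1 they separate in submandibular gland and not in lacrimal gland.

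The dimmer members gave few usable values. Psmb9 lay between 55.1 ± 7.28 in B6-scid pancreas and 209 ± 148 in B6-scid submandibular gland at 15 weeks, where single mice read 378 and 334 and others 57.1 and 65.7. Tap2 probe set 1 lay between 104 ± 86.1 in B6-scid pancreas and 273 ± 28.5 in NOD-scid submandibular gland at 15 weeks, with overlap between all neighbouring groups. Tap2 probe set 2, on design C, gave a different order, with 442, 497, 568, 927 and 839 in B6-scid and 1290, 585, 1396, 1044 and 903 in NOD-scid pancreas. H2-M3 probe set 1 lay between 104 ± 23.7 in B6-scid pancreas and 527 ± 115 in NOD-scid submandibular gland at 15 weeks. H2-K1 probe set 3, the 1 H2-K1 probe set without the family suffix, had signals of 71.9 to 571 over all samples.

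Other genes of the pathway were followed by fixed lists. Of 12 genes that supply peptides (constitutive and inducible proteasome parts and trimming peptidases), 8 or 9 were tested per strain comparison and none was called in any of the 4. Of the 3 chaperones Canx, Calr and Pdia3, all 3 were tested in lacrimal gland and 2 in each other strain comparison, and none was called. In lacrimal gland Calr was at 1.01 (adjusted p = 0.160) and Pdia3 at 0.73 (0.285), above 0 where the chains were below it. Canx lay below 0 there, as the chains did. Of 18 regulators, 13 to 15 were tested and none was called. Among them Nlrc5, the transactivator of class I genes, was at 1.64 (adjusted p = 0.0681) and 1.24 (0.373) in submandibular gland at 9 and 15 weeks and at -1.13 (0.430) in lacrimal gland. Most regulators lay below 0 in both glands. Of 15 tested, these were 10 in submandibular gland at 9 weeks (median -0.19), 11 at 15 weeks (-0.15) and 9 in lacrimal gland (-0.50). The part of Nlrc5 in the class I values was not tested. In NOD-scid the difference of Nlrc5 between lacrimal and submandibular gland was -2.50 (SE 0.51, adjusted p = 0.00247), and 3 of the 15 regulators tested were called there, beside 15.0% of all probe sets: Nlrc5 and Irf9 (-1.14, adjusted p = 0.00621) lower and Jak1 higher (0.98, adjusted p = 0.0133) in lacrimal gland.

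Of 19 other class I molecules, 8 to 11 were tested and none was called in a strain comparison. H2-Q4, a class Ib heavy chain, was at -1.62 (adjusted p = 0.0796) in lacrimal gland, and its strain difference was called lower in lacrimal than in submandibular gland, at -2.01 (SE 0.40, adjusted p = 0.0327). Of 32 interferon response genes, 18 to 23 were tested, and 1 was called, Bst2 (tetherin), on the lower side in submandibular gland of NOD-scid mice of 9 weeks, at -1.26 (SE 0.27, adjusted p = 0.0263). In lacrimal gland 18 of 20 of them lay below 0 (median -0.79), and their summed signal was 6265 to 17897 in B6-scid and 5344 to 7477 in NOD-scid, which overlapped. In submandibular gland at 15 weeks 20 of 23 lay below 0 (median -0.52), where the heavy chain probe sets lay above 0, except H2-K1 probe set 1 after quantile normalization (-0.02). The macrophage receptor gene Fcgr1 was higher in NOD-scid submandibular gland, by 1.15 at 9 weeks (adjusted p = 0.00844) and 1.03 at 15 weeks (0.0255), and it was the 1 called gene of 11 macrophage markers at each age. Of the 11, 6 lay below 0 at 9 weeks (median -0.10) and 7 at 15 weeks (median -0.27). The summed macrophage signal there was 6745 to 8590 against 7402 to 8726 at 9 weeks and 6407 to 7855 against 7107 to 8365 at 15 weeks, overlapping at both ages, and its part in the heavy chain values was not tested.

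After each group's mean was subtracted, the deviations of the 39 samples gave the genes most like 3 of the members on design A, as a description over samples that share glands and hybridisations. H2-K1 was most like Chia1 (Pearson r = 0.78), H2-D1 (0.77), Ggh (0.77), Atp2a3 (0.74) and the salivary proline-rich protein gene Prpmp5 (0.73), of which Prpmp5 is 1 of the saliva markers above. B2m was most like Atp6v1g1 (0.70), Eif4a1 (0.69), Galnt1 (0.69), Fkbp11 (0.69) and Cst3 (0.67). Tap1 was most like Gon4l (0.63), 2510039O18Rik (0.62), Wdr45 (0.60), Ptgfr (0.59) and Gcdh (0.59), and neither B2m nor a heavy chain was among them.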

How the data were processed

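The 39 gland samples were each hybridised to 3 array designs, and the authors deposited 1 linear signal intensity per probe set and array, made with MAS5 per the submitters' processing notes; version, settings and detection calls are not given in the sources used here. Every array had been scaled to 1 level, with 2% trimmed means of 2500 to 2502, and was rescaled here to 500. Precision is limited by how many mice each group had.

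Symbols came from the platform annotation, updated through RefSeq gene names (assembly GRCm38.p6): 29131 probe sets had 1 symbol, 724 several and 6846 none, 29044 matched, and 198 control probe sets were left out. For each comparison, limma 3.58.1 (R 4.3.3; lmFit, then eBayes) was run on log2(signal + 32) of probe sets with a signal of at least 100 on at least 4 arrays of the fit, with Benjamini-Hochberg adjustment over the 3 designs together. Both submandibular ages shared 1 fit, as did both glands at 15 weeks for the gland comparisons, and pancreas and the lacrimal strain comparison had fits of their own. Probe set ratios were compared with exact permutation tests (scipy 1.17.1, Python 3.11.15). The limma step was tested on simulated data.

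All probe sets of the 10 symbols are described; probe set 1 is on design A before B before C and has the highest mean there. From other lists, called genes were named by smallest p, and uncalled genes named beside them (Calr, Pdia3, Nlrc5, and H2-Q4 in the strain comparisons) were chosen after their values were seen. The members and lists were chosen with earlier results of these data known. Alternatives covered the pseudocount, the filter, quantile normalization, variance settings, sample weights, the samples fitted, RNA integrity, replicate numbers and left-out samples. Fits without the 3 lacrimal samples highest in saliva markers, and fits per array design, were added after seeing the data. Same-numbered samples of compared groups correlated at -0.030 to 0.091 in their deviations from group means, so numbers were not treated as pairs.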

Additional observations from a re-analysis of the deposited data

Results flagged for a closer look

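The strain difference of 5 probe sets differed between lacrimal and submandibular gland of 15 weeks by the interaction test in limma. The differences, lacrimal minus submandibular, were -2.82 for B2m, -2.52, -1.50 and -2.27 for H2-D1 probe sets 1 to 3 and -1.97 for H2-K1 probe set 2. Their adjusted p-values and their values without the lacrimal samples high in saliva markers are given above, and what led to them was not tested.

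A mouse far from the others of its group was found in 16 of 168 sets of values (1 probe set in 1 group), where chance gives about 1 in 20. H2-D1 probe set 1 read 2057.4 in NOD-scid pancreas replicate 1, where the next value was 1083.1, and H2-D1 probe set 3 read 2270.3 in NOD-scid submandibular gland replicate 5 at 15 weeks, below the next value of 2742.3. Tapbp probe set 2 read 1186.8 in NOD-scid submandibular gland replicate 1 at 15 weeks, and Tap2 probe set 2 read 564.87 in B6-scid replicate 2 of that gland and age.

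The other 12 were in dim probe sets. In pancreas these were 256.65 for Tap2 probe set 1 (B6-scid replicate 2), 180.03 for Tapbp probe set 4 and 317.22 for Psmb8 probe set 2 (both NOD-scid replicate 3), 229.46 for Psmb9 (NOD-scid replicate 2) and 354.68 for H2-M3 probe set 2 (B6-scid replicate 1). In submandibular gland these were 234.56 for Tapbp probe set 4 (B6-scid, 15 weeks, replicate 2), 415.02 for Psmb8 probe set 2 (B6-scid, 9 weeks, replicate 5), and 226.12 and 198.51 for H2-M3 probe set 2 (NOD-scid, 9 weeks replicate 5 and 15 weeks replicate 3). In lacrimal gland these were 321.34 for Psmb8 probe set 2 (B6-scid replicate 1), 181.34 for Psmb9 (NOD-scid replicate 2) and 520.1 for H2-M3 probe set 1 (NOD-scid replicate 4, the NOD-scid mouse highest in saliva markers).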

How the results depend on the processing

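No call of a class I probe set changed direction under any alternative. The counts of called class I probe sets moved as follows. Leaving out 1 replicate gave 1 to 2 calls in pancreas, in submandibular gland at 9 weeks and in lacrimal gland (2 each with all mice), 3 to 5 for the strain difference between glands (5), 1 to 3 in the B6-scid gland comparison (3) and 10 to 12 in the NOD-scid one (12). With the RNA integrity covariate pancreas had 0 calls and lacrimal gland 4. The fit with the replicate number as a block (replicate block) gave 0 in pancreas, 1 in submandibular gland at 9 weeks, 0 in lacrimal gland and 11 in the NOD-scid gland comparison; the numbers showed no pairing, with 1 to 3 samples per comparison correlating best with their own number. Sample weights gave 1 call in submandibular gland at each age, against 0 at 15 weeks without them. A variance trend with robust estimation gave 2 in submandibular gland at 15 weeks and 4 in lacrimal gland. The fit of all 39 samples gave 1 at 9 weeks and 8 in lacrimal gland, and fitting the 9-week samples alone gave 0. Without the 9-week samples numbered 4 and 5 the count there was 1. For the strain difference between glands, a pseudocount of 8 and no filter gave 3 each, as did leaving out the 2 B6-scid or all 3 lacrimal samples high in saliva markers; without all 3, lacrimal gland had 0 calls. The B6-scid gland comparison had 5 calls with quantile normalization and in both fits without these samples.

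Over all probe sets, counts beyond 1.5 times the reported ones were 241, 42, 43 and 295 in pancreas (127 reported; variance trend, covariate, block, 39-sample fit), 137 and 91 in submandibular gland at 9 weeks (302; weights, that age alone), 362 at 15 weeks (178; weights), 140 for the strain difference between glands (90; trend) and 3 for that between ages (0; without samples 4 and 5). In lacrimal gland (265) they were 516, 11, 650, 111 and 36 (trend, block, 39-sample fit, without 2 and without 3 samples), and 123 to 203 with 1 mouse left out. The age comparisons gave 543 and 908 in B6-scid (340) and 405 and 700 in NOD-scid (256) with trend and 39-sample fit, and 75 to 356 and 66 to 241 with 1 mouse left out.

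With 4 or 5 mice per group, differences near the threshold turned on single mice. Signals under 100 were close to background and gave no order between groups.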
